A study of Mus musculus with 4 samples.

Results

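The deposited data hold the 18-month samples of this mouse series in 2 forms, as columns of the authors' table of all samples and as 1 scanner file for each array, and their values differ. Described here are the table's 2 columns for the 18-month samples against the 2 scanner arrays with the same titles. These are 4 of the 8 columns of values in all, and they belong to 2 of the 4 samples. The columns were taken by sample title, and the comparison was chosen with earlier results of these data known.

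The series compared wild-type (WT) mice with mice that carry 1 knocked-out copy of Rp58 (hetero-KO), a gene now named Zbtb18 that encodes a zinc finger transcriptional repressor. Both genotypes were sampled at 4 months and in old age, for which the labels give an age of 18 months, titles of 1.5 years and descriptions of 12 to 18 months. Every label names the hippocampus as the tissue. Each group is 1 array of Cy3-labelled cRNA made from 200 ng of a mixture of 3 total RNA samples, so the spread between animals was not measured. The labels used here give no strain, sex, age within the range or time of day for a mouse, and they do not say how the knockout allele was made. Zbtb18 itself stood at a level of 11.8 in the WT and 11.4 in the hetero-KO column of the table, and at 18.7 and 21.3 on the 18-month scanner arrays. The hetero-KO value was thus below the WT value in the table by 0.04 on the log2 scale and above it on the scanner arrays by 0.19, and since the part of the gene that is deleted is not given, the probe does not check the genotype labels.

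A level here is a spot's signal divided by the 75th percentile of its own column, so that a level of 1 is a fairly bright gene. For the 4-month samples the table and the scanner files agreed to within 4.43e-05% of a constant ratio at every probe. For the 18-month samples they did not, and the log2 ratio of table to scanner had an SD over probes of 0.80 for both WT and hetero-KO. No source used here tells which arrays the table's 18-month columns were made from. Array, slide, RNA source and the sex of the mice cannot be told apart between the sides. The 4 scanner arrays lie on 1 slide. Of the table's features 78.5% and 78.3% stood at or above the detection level of 0.00816, against 79.2% and 79.0% on the scanner arrays. That level is the one below which 95% of spots not well above background lay on the 18-month hetero-KO scanner array, the higher of both 18-month arrays.

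As a description over 56584 probes, the table's WT and hetero-KO columns had a Pearson correlation of 0.990 with each other on the log2 scale, and the 18-month scanner arrays one of 0.992. Each table column had a correlation of 0.978 with the scanner array of its own title and of 0.978 with the 18-month array of the other title. With the 4-month WT and hetero-KO arrays the WT column had correlations of 0.981 and 0.982. The hetero-KO column had 0.979 and 0.982 with them. The probe set and array design were shared by all pairs. In counts of genes detected on both sides, the WT column lay at least 2-fold from the 18-month WT scanner array for 2524 genes (9.16%). The hetero-KO column lay so from the 18-month hetero-KO array for 2615 genes (9.54%). From the 4-month WT and hetero-KO arrays the shares were 7.86% and 6.86% for the WT column. For the hetero-KO column they were 8.30% and 7.06%. Within the table the genotypes were at least 2-fold apart for 256 genes (0.926%), and within the 18-month scanner files for 327 genes (1.17%).

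The hippocampus is a folded sheet of neurons in which dentate granule cells project to CA3, CA3 to CA1, and CA1 to the subiculum, and each of these fields has genes that mark it. The neocortex lying over it is built of layers, with callosal and local projection neurons in the upper layers and neurons projecting out of the cortex in the deep ones. The choroid plexus, a secretory epithelium that makes cerebrospinal fluid, and the ciliated ependyma lie along the ventricles beside the hippocampus, and the striatum and thalamus lie near it.

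The probes of 5 genes that set the sides apart are shown first, so that the measured stretch is clear. Rspo1 is a marker on the upper-layer cortex list, Dsp and Lct are on the dentate list, C4b is a complement gene, and Xist is the transcript that coats the inactive X chromosome. Each line gives the first 30 of the 60 bases of the probe in lower case, 5′ to 3′.
Rspo1: ccgtggtacacgtcacggatgacctgactt
Dsp: aaattacactgactactggtggcttagtac
Lct: ctcatttcagggtttgatggtagactcaag
C4b: ttaggactctggctctctgagctcagctca
Xist: tgtgtctctttgctattggtggatttctta
In mouse build mm9, as the scanner files give it, the Rspo1 probe covers chr4:124686270-124686329 and the Dsp probe chr13:38290121-38290180 on the plus strand. On the minus strand the Lct probe covers chr1:130181389-130181448, the C4b probe chr17:34865367-34865426 and the Xist probe chrX:100662174-100662233. The exon or UTR that each stretch falls in was not looked up, since no annotation of that build was used.

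Of 28480 genes tested with limma (Benjamini-Hochberg adjusted p under 0.05, 2 columns against 2), 10694 differed between the table and the 18-month scanner arrays, which is 37.5%. Higher in the table were 4186 genes (14.7%) and lower were 6508 (22.9%). These shares are the background for the counts of list members below. At least 2-fold higher among these were 1303 genes (4.58%) and at least 2-fold lower 1489 (5.23%). The median difference over all genes tested was -0.08 on the log2 scale, and 40.2% of genes lay above 0. Higher genes made up 39.1% of the calls, and 50.5% where each column was centred on its median in place of the 75th percentile. Without the table's hetero-KO column 2715 genes were higher and 3796 lower, and without its WT column 2846 and 4210. The columns of a side are of different genotype, so their spread holds that difference as well.

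The table columns were also set against the 4-month scanner arrays, a comparison added after the data had been seen, which shares the table columns with the first. Here 7859 of 28399 genes differed (27.7%), 3812 higher in the table (13.4%) and 4047 lower (14.3%), with a median over all genes of -0.04. Without the table's hetero-KO column these were 2382 and 2328 genes, and 2548 were lower without the 4-month WT array.

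**Figure D1:**
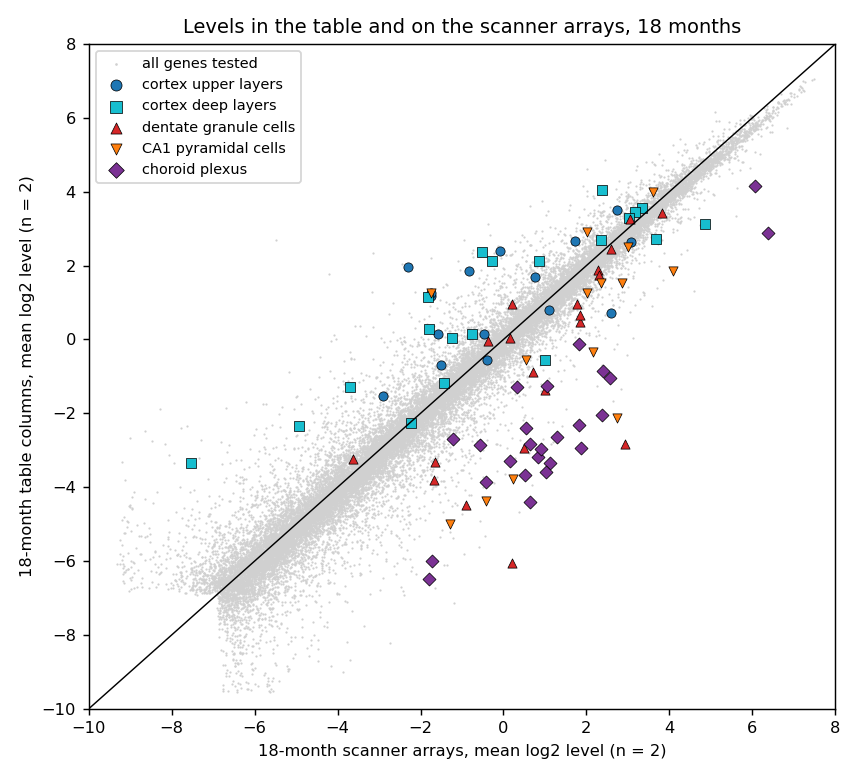
Mean log2 level of each gene tested on the 18-month scanner arrays (x axis, n = 2) and in the 18-month table columns (y axis, n = 2), with marker genes of 5 lists in colour and the line of equal levels in black. Of the 16 upper-layer cortex markers 12 passed as higher in the table, while all 25 choroid plexus markers and 14 of the 20 dentate granule cell markers passed as lower.

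Markers of dentate granule cells were lower in the table. Of 20 tested, 14 were lower and 1 higher, with a median of -1.0 against -0.08 for all genes. Without the WT scanner array 3 were higher and 13 lower. Dsp, which encodes the desmosome protein desmoplakin and marks granule cells, stood at 0.0174 and 0.0133 in the table (WT, then hetero-KO, here and below), at 1.46 and 0.900 on the 18-month scanner arrays, and at 1.41 and 0.788 on the 4-month arrays. Its difference from the 18-month arrays was -6.24 (SE 0.26, limma adjusted p = 0.00015), and the highest table value was far below the lowest value of all 4 scanner arrays. Lct, the lactase gene, read 0.0963 and 0.206 in the table, 8.44 and 6.78 on the 18-month arrays and 6.01 and 4.11 at 4 months (-5.75, SE 0.35, limma adjusted p = 0.00036). The sides did not overlap for Lct either, with the table's hetero-KO column the higher of its pair.

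Prox1, the transcription factor that sets granule cell identity, read 0.455 and 0.333 in the table against 2.16 and 1.83 on the 18-month scanner arrays, a difference of -2.35 (limma adjusted p = 0.00053). C1ql2, a secreted ligand at mossy fibre synapses, was lower by 3.58 (0.0429 and 0.0471 against 0.524 and 0.553, limma adjusted p = 7.7e-05), and the cytokine gene Il16 by 3.44 (0.117 and 0.146 against 1.46 and 1.37, limma adjusted p = 0.00012). These 3 genes did not overlap between the sides, which their choice by passing and by size of difference favours. Calb1, a calcium buffer found in granule cells and in many other neurons, did not pass (0.20). The labels give hippocampus for both sides, while of 20 granule cell markers 14 were lower and 1 higher in the table than on the scanner arrays. Which tissue the table's 18-month columns come from was not tested, so they are called the table columns here and are given no other tissue name. In arrays of whole tissue, fewer cells of a type and less RNA per cell cannot be told apart.

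Markers of CA1 pyramidal cells were lower for 10 of 14 genes tested and higher for 3 (median -1.20). Lefty1, a secreted antagonist of Nodal signalling, read 0.0518 and 0.103 in the table against 1.24 and 1.11 on the 18-month arrays, a difference of -4.01 (limma adjusted p = 0.00069), with no overlap. Spink8, a serine protease inhibitor gene of CA1, read 0.136 and 0.392 against 6.74 and 6.58 (-4.85, limma adjusted p = 0.0013). Its value was -5.62 without the table's hetero-KO column and -4.09 without its WT column. Fibcd1, an acetyl-group receptor gene, read 0.0315 and 0.0735 against 0.702 and 0.784 (-3.95, limma adjusted p = 0.0013), and its value ran from -4.56 to -3.33 on leaving out 1 table column. Wfs1, a CA1 marker that is also found outside the hippocampus, did not pass (-0.49).

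CA2 and CA3 markers were lower as well. For CA2, 7 of 10 genes were lower and 2 higher (median -1.63). The neurotrophin gene Ntf3 read 0.111 and 0.173 in the table and 0.996 and 0.889 on the scanner arrays (-2.76, limma adjusted p = 0.00066), and the adhesion gene Amigo2 read 0.0573 and 0.0677 against 0.289 and 0.333 (-2.31, limma adjusted p = 0.00032). Neither overlapped. Sostdc1, the CA2 gene with the largest difference (-4.46), is on the choroid plexus list too. For CA3, 8 of 13 genes were lower and 1 higher (median -0.85), or 3 higher where all probes of a gene were averaged. Grik4, a kainate receptor subunit of CA3 neurons, read 2.26 and 2.43 against 6.46 and 7.13 (-1.53, limma adjusted p = 0.00020), and the transcription factor gene St18 read 0.674 and 0.552 against 3.56 and 2.95 (-2.41). Coch, the gene on the CA3 list that was higher, encodes an extracellular matrix protein and read 1.05 and 0.906 against 0.146 and 0.154 (2.70, limma adjusted p = 0.00012). Subiculum and entorhinal markers went both ways, with 3 of 12 higher and 4 lower (median 0.29). Without the WT scanner array 6 were higher and 3 lower. The secreted neurexin ligand gene Nxph3 read 6.52 and 7.68 in the table and 1.27 and 1.44 on the arrays (2.39, limma adjusted p = 0.00016).

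Markers of cortical layers were higher in the table. In the upper-layer list 12 of 16 genes were higher and 3 lower (median 0.93), and in the deep-layer list 14 of 20 were higher and 3 lower (median 1.08). The higher deep-layer genes include Foxp2, which was kept for testing by its table levels alone and whose probes disagree in sign. Rspo1, a secreted activator of Wnt signalling, read 3.83 and 3.99 in the table, 0.234 and 0.179 on the 18-month scanner arrays and 0.269 and 0.235 on the 4-month arrays. It was higher by 4.26 (SE 0.13, limma adjusted p = 9.1e-05), and the sides lay far apart. Cux2, a homeodomain factor of upper-layer neurons, read 3.53 and 3.73 against 0.612 and 0.514 (2.69, limma adjusted p = 0.00012). Lamp5, a membrane protein gene of upper-layer neurons and of some interneurons, read 5.41 and 5.10 against 0.925 and 0.966 (2.47, limma adjusted p = 6.0e-05). The other probe of Lamp5 differed by 0.55. The synaptic organiser Cbln2 read 2.20 and 2.34 against 0.283 and 0.314 (2.93). The upper-layer gene with the largest difference in the other direction was Mdga1, at -1.87.

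Ccn2, a matricellular protein gene that marks the deepest cortical layer, read 4.94 and 5.31 in the table, 0.643 and 0.758 on the 18-month scanner arrays and 0.817 and 0.700 on the 4-month arrays (2.88, SE 0.09, limma adjusted p = 0.00010). Cplx3, a complexin gene of the same layer, read 0.411 and 0.413 against 0.0798 and 0.0751 (2.41, limma adjusted p = 0.00013). The dopamine receptor gene Drd1, which the deep-layer and the striatum lists share, read 2.71 and 1.83 against 0.327 and 0.242 (2.99, limma adjusted p = 0.00063). None of these overlapped. Foxp2, a forkhead factor of deep-layer neurons, was not well above background on either 18-month scanner array at the probe used. Its level in the table was at least 12.5-fold higher (0.113 and 0.0871). The other probe of Foxp2 differed by -2.53, so the gene's direction is uncertain. Of deep-layer genes, Tbr1, a T-box factor of corticothalamic neurons, was higher by 1.68, and Crym, a thyroid hormone binding protein gene, was lower by 1.73.

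**Figure D2:**
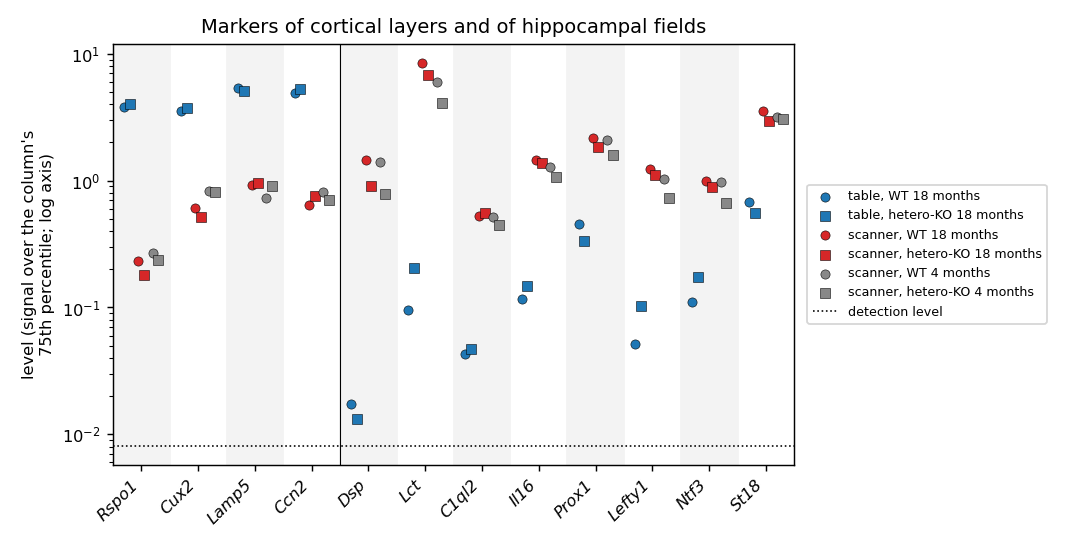
Level of each gene (y axis, log scale, signal over the column's 75th percentile) in 6 columns, 1 point each: the 2 table columns (blue), the 2 18-month scanner arrays (red) and the 2 4-month scanner arrays (grey), with circles for WT and squares for hetero-KO. The 4 cortical layer genes at left lie higher in both table columns than on any scanner array, and the 8 genes of hippocampal fields at right lie lower in both.

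Against the 4-month scanner arrays the region lists had the following values, with the table columns shared. Dentate markers were lower for 12 of 20 genes (median -1.07), CA1 markers for 10 of 14 (-1.24), CA2 markers for 7 of 10 (-1.28) and CA3 markers for 7 of 13 (-0.79). Upper-layer markers were higher for 12 of 16 (0.89) and deep-layer markers for 13 of 20 (0.79).

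Striatum markers were higher in the table for 16 of 21 genes tested, and 1 was lower (median 1.21). The adenosine receptor gene Adora2a read 0.740 and 0.653 against 0.0581 and 0.107 (3.14, limma adjusted p = 0.0010), and Rgs9, a regulator of G protein signalling in striatal neurons, read 7.42 and 5.30 against 1.21 and 1.44 (2.25, limma adjusted p = 0.00064). The sides did not overlap for these genes. On the 4-month hetero-KO array both genes were high: Adora2a read 0.376 and Rgs9 5.82, beside 0.0780 and 1.79 on the 4-month WT array. Against the 4-month arrays 1 striatum gene was higher and 1 lower (median 0.49).

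Thalamus and habenula markers went both ways against the 18-month arrays, with 6 of 19 higher and 5 lower (median 0.10). The sign of that median turned without the table's WT column and where all probes of a gene were averaged. Against the 4-month arrays 14 of 21 were lower and 1 higher (median -1.79). Prkcd, a protein kinase C gene of thalamic relay neurons, read 0.612 and 0.283 in the table, 1.71 and 1.43 on the 18-month arrays and 4.87 and 2.79 on the 4-month arrays (-1.91 and -3.15). Lhx9, a LIM homeodomain gene, read 0.0362 and 0.0298, then 0.741 and 0.620, then 0.725 and 0.707 (-4.37 and -4.45, limma adjusted p = 0.00011 for both). The vesicular glutamate transporter gene Slc17a6, which is abundant in thalamus, read 1.31 and 1.27, then 0.479 and 0.205, then 1.95 and 1.40. It was higher in the table than on the 18-month arrays by 2.04 (limma adjusted p = 0.010; from 1.43 to 2.66 on leaving out 1 scanner array) and did not pass against the 4-month arrays (-0.36).

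In the hypothalamus list 3 of 18 genes were higher and 8 lower (median -0.13, positive where all probes of a gene were averaged). Without the table's WT column 4 were lower, and without the WT scanner array 6 were higher. Crh, the corticotropin releasing hormone gene, which cortical interneurons also express, read 1.39 and 1.69 in the table and 0.195 and 0.230 on the arrays (2.86, limma adjusted p = 0.00018). The vasopressin gene Avp read 0.0329 and 0.0451 against 0.308 and 0.273 (-2.91, limma adjusted p = 0.00038), and Hdc, the enzyme that makes histamine, 0.108 and 0.104 against 0.670 and 0.483 (-2.42). In the septum and basal forebrain list 3 of 13 were higher and 6 lower (median -0.70), with 2 higher and 3 lower on leaving out either table column. Slc5a7, the choline transporter of cholinergic neurons, read 0.159 and 0.121 in the table, 0.0277 and 0.0235 on the 18-month arrays and 0.126 and 0.149 on the 4-month arrays (2.44 and 0.02). The first of these differences passed (limma adjusted p = 0.00064) and the second did not.

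All 25 choroid plexus markers were lower in the table, with a median of -3.61 and a range from -5.03 to -1.47. The median was -4.34 without the table's WT column and -3.12 without its hetero-KO column, and all 25 passed in both cases. Kcne2, a potassium channel subunit gene of that epithelium, read 0.273 and 0.0612 in the table, 4.94 and 2.75 on the 18-month scanner arrays and 4.49 and 3.23 on the 4-month arrays (-4.83, limma adjusted p = 0.0046). F5, the coagulation factor V gene, read 0.149 and 0.0471 against 2.95 and 1.41 (-4.60, limma adjusted p = 0.0032), and the bicarbonate transporter gene Slc4a5 0.117 and 0.0191 against 2.04 and 1.17 (-5.03, limma adjusted p = 0.0069). The sides did not overlap. In these 3 genes the hetero-KO table column was the lower of its pair: the differences from the scanner arrays without the table's WT column were -5.91, -5.43 and -6.34, and without its hetero-KO column -3.76, -3.78 and -3.73. The summed level of the list was 42.4 and 23.3 in the table, 230.4 and 175.1 on the 18-month arrays and 193.7 and 158.0 on the 4-month arrays. Against the 4-month arrays all 25 were lower as well (median -3.65).

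Ependymal markers, most of them parts of motile cilia, were lower for 15 of 16 genes (median -2.05). The cilium gene Tmem212 read 0.205 and 0.166 against 1.21 and 0.968 (-2.55, limma adjusted p = 0.00033), and Cfap126 0.514 and 0.356 against 2.74 and 1.86 (-2.40, limma adjusted p = 0.0014), with no overlap. Meningeal fibroblast genes were lower for 7 of 18 (median -0.37, from -0.58 to -0.06 over the alternative runs). Of this list 38.9% passed, near the 37.5% of all genes tested. The proteoglycan gene Lum was lower by 1.83 (0.197 and 0.159 against 0.599 and 0.660, limma adjusted p = 0.00051). Among endothelial genes 6 of 22 were higher and 2 lower (median 0.11), so that 36.4% passed, near the share of all genes. Without the table's WT column 2 were higher and 1 lower, and without its hetero-KO column 6 were higher and 0 lower by limma (2 lower at an unadjusted p under 0.05). The transcription factor gene Sox17 read 1.96 and 1.47 against 0.403 and 0.585 (1.80, limma adjusted p = 0.0024). Its 3 probes ran from 0.02 to 1.80, so the size of its difference is uncertain.

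Microglial genes were lower in the table than on the 18-month arrays. Of the homeostatic list 18 of 23 were lower and 1 higher (median -0.63), and of the list of aged and disease-associated microglia 16 of 27 were lower and 1 higher (median -0.98). The protease gene Ctss read 12.0 and 11.2 in the table, 20.6 and 23.1 on the 18-month scanner arrays and 13.2 and 13.9 on the 4-month arrays. Its difference was -0.91 from the 18-month arrays (limma adjusted p = 0.00069) and -0.22 from the 4-month arrays. Trem2, a lipid-sensing receptor of microglia, read 2.50 and 2.13, then 3.92 and 4.71, then 2.37 and 2.43, with differences of -0.90 (limma adjusted p = 0.0033) and -0.06. For both genes the table values lay below both 18-month arrays, and for Trem2 they did not lie apart from the 4-month arrays. Olfml3, the homeostatic gene that was higher (1.40), has probes that disagree in sign. Against the 4-month arrays 5 of the 23 homeostatic genes were lower and 1 higher (median -0.14), and 7 of the 27 aged microglia genes were lower (median -0.16).

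In the aged list the chemokine gene Ccl3 read 0.0364 and 0.0179 in the table, 0.108 and 0.132 on the 18-month arrays and 0.0283 and 0.0233 on the 4-month arrays (-2.23 and -0.01, limma adjusted p = 0.0055 for the first). Lgals3, the galectin-3 gene, read 0.246 and 0.0812, then 0.819 and 0.960, then 0.545 and 0.375. Its difference from the 18-month arrays was -2.65 (limma adjusted p = 0.010; from -3.45 to -1.85 on leaving out 1 table column). Clec7a, a receptor gene of activated microglia, read 0.120 and 0.0346, then 0.357 and 0.567, then 0.0836 and 0.0672. It passed against the 18-month arrays (-2.80, limma adjusted p = 0.015) but not on leaving out the hetero-KO scanner array, and its value ran from -3.70 to -1.91 on leaving out 1 column.

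Complement genes were lower for 12 of 20 and higher for 1 (median -0.70). C4b, the main complement factor 4 gene, read 2.95 and 2.06 in the table, 21.2 and 27.6 on the 18-month scanner arrays and 4.96 and 5.01 on the 4-month arrays. Its difference was -3.30 from the 18-month arrays (SE 0.20, limma adjusted p = 0.00036) and -1.02 from the 4-month arrays (limma adjusted p = 0.0086), and neither pair overlapped with the table. C4a, its near-identical neighbour, whose signal may be shared with it, differed by -3.51. C3, the central complement factor, read 0.428 and 0.105, then 2.09 and 2.49, then 0.555 and 0.419 (-3.43, limma adjusted p = 0.0095). That value was -4.44 without the table's WT column and -2.41 without its hetero-KO column. Against the 4-month arrays 8 of 20 complement genes were lower (median -0.20).

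MHC class I genes were lower for 11 of 16 and higher for 1 (median -0.56), and for 6 where all probes of a gene were averaged. MHC class II genes were lower for 7 of 9 and higher for 1 (median -1.09). Tap1, which carries peptides to class I molecules, read 0.137 and 0.106 against 0.229 and 0.255 (-1.0, limma adjusted p = 0.0051), and the class II chain H2-Eb1 0.294 and 0.197 against 0.660 and 0.763 (-1.56, limma adjusted p = 0.0030). Neither overlapped. Against the 4-month arrays the median of the class I list was -0.16 and that of the class II list -0.45. Of the markers of neutrophils and monocytes 4 of 10 were lower (median -1.01, from -1.24 to -0.73 over the alternative runs). That is 40% passing, near the 37.5% of all genes tested. Without the table's hetero-KO column 0 were lower by limma (3 at an unadjusted p under 0.05). Border macrophage markers were lower for 2 of 12 (median -0.54), a share below that of all genes tested, and for 7 without the WT scanner array.

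Reactive astrocyte genes were lower in the table for 15 of 25 and higher for 2 (median -0.65). The secreted protease inhibitor gene Serpina3n read 0.0793 and 0.0802 in the table, 0.810 and 1.31 on the 18-month scanner arrays and 0.479 and 0.447 on the 4-month arrays (-3.69 and -2.54, limma adjusted p = 0.00036 and 0.00018). Gfap, the intermediate filament gene of astrocytes, read 2.09 and 1.35, then 8.07 and 8.43, then 5.72 and 4.60 (-2.29 and -1.61, limma adjusted p = 0.00091 and 0.0049). The table columns were the lowest of the 6 for both genes, with no overlap. Of the homeostatic astrocyte genes 14 of 24 were lower and 2 higher, with a median of -0.26. Without the table's hetero-KO column 7 were lower and 0 higher by limma (0 higher also at an unadjusted p under 0.05), and without the WT scanner array 0 were higher by limma (1 at an unadjusted p under 0.05). Agt, the angiotensinogen gene, read 0.535 and 0.488, then 1.32 and 1.24, then 1.89 and 2.40 (-1.33, limma adjusted p = 0.00035).

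Myelin and oligodendrocyte genes were lower for 22 of 26 and higher for 1 (median -0.60). Trf, the transferrin gene, which oligodendrocytes express, read 29.0 and 27.0 in the table, 51.4 and 57.3 on the 18-month arrays and 38.7 and 37.8 on the 4-month arrays (-0.96, limma adjusted p = 0.00053). The apolipoprotein gene Apod read 27.3 and 21.4, then 43.5 and 61.3, then 36.0 and 33.4 (-1.10, limma adjusted p = 0.0078). Mbp, the myelin basic protein gene, passed at -0.67. Set beside the 4-month arrays, 20 of 26 were lower and 1 higher (median -0.48).

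Immediate early genes, which respond quickly when neurons fire, were higher in the table for 29 of 38 and lower for 1 (median 0.97). Fos read 6.10 and 7.61 in the table, 1.28 and 1.54 on the 18-month scanner arrays and 1.90 and 2.44 on the 4-month arrays (2.28 and 1.66, limma adjusted p = 0.00033 and 0.0014). Dusp1, a phosphatase gene that damps MAP kinases, read 7.44 and 7.76, then 1.75 and 1.69, then 2.23 and 2.47 (2.14, limma adjusted p = 6.0e-05), and the zinc finger factor Egr2 5.70 and 7.16, then 1.32 and 1.66, then 1.34 and 2.48 (2.11, limma adjusted p = 0.00055). In each of these genes both table columns lay above all 4 scanner arrays. Jun was the gene that was lower, at -0.94. In the comparison with the 4-month arrays, 29 of 38 were higher and 1 lower (median 0.92).

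Glucocorticoid-induced genes went mostly the other way, with 11 of 20 lower and 4 higher (median -0.47), and 7 lower without the table's WT column. Plin4, a lipid droplet gene, read 0.223 and 0.197 in the table, 0.946 and 1.37 on the 18-month arrays and 0.369 and 0.336 on the 4-month arrays (-2.44, limma adjusted p = 0.00062). Fkbp5, a co-chaperone of the glucocorticoid receptor, read 1.31 and 1.33, then 3.27 and 3.93, then 2.46 and 2.55 (-1.44, limma adjusted p = 0.00048). Both genes were lowest in the table columns.

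**Figure D3:**
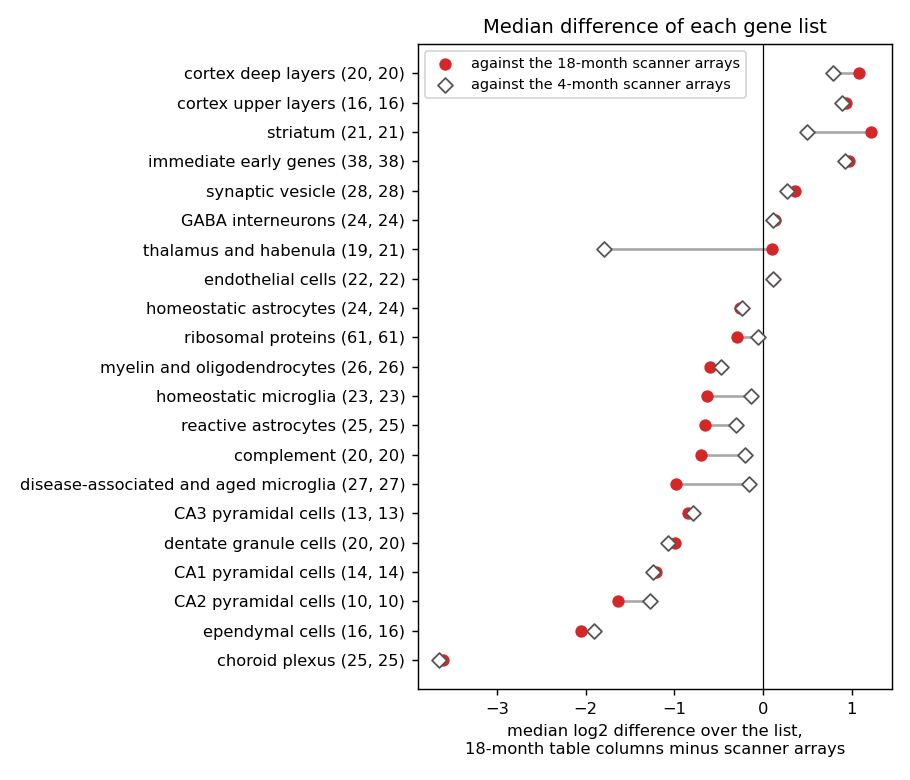
Median log2 difference of the table columns from the 18-month scanner arrays (red circles) and from the 4-month scanner arrays (open diamonds) for 21 gene lists, with the number of genes tested in each comparison in brackets; both use the same table columns. The choroid plexus list lies lowest in both (-3.61 and -3.65), the aged microglia list at -0.98 and -0.16, and the thalamus list at 0.10 and -1.79.

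Receptor and channel genes differed in both directions. In the ionotropic glutamate receptor family 5 of 16 subunits were higher in the table and 9 lower (median -0.24), with 4 lower without the table's hetero-KO column. The AMPA receptor subunit gene Gria1 read 16.3 and 18.0 in the table, 49.4 and 50.1 on the 18-month scanner arrays and 43.1 and 41.7 on the 4-month arrays (-1.53, SE 0.06, limma adjusted p = 0.00013), and Gria4 read 3.06 and 3.02, then 1.14 and 1.23, then 1.52 and 1.66 (1.36, limma adjusted p = 0.00020). The kainate receptor subunit gene Grik3 was higher by 2.04 and Grik4 lower by 1.53. Of 13 GABA-A receptor subunits 8 were higher and 4 lower (median 0.41), with 5 higher and 3 lower without the table's hetero-KO column. Gabra5, the subunit of hippocampal extrasynaptic receptors, read 4.76 and 5.25, then 18.7 and 20.2, then 16.1 and 15.6 (-1.96, limma adjusted p = 0.00012). Gabrd, another extrasynaptic subunit, read 7.91 and 8.18, then 2.76 and 2.78, then 3.89 and 3.50 (1.54, limma adjusted p = 9.7e-05). The columns of each side lay close together for these subunits, and no side overlapped.

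Among potassium channel genes 12 of 32 were higher and 8 lower (median 0.19), with 7 higher and 7 lower without the table's WT column. The inward rectifier gene Kcnj9 read 9.90 and 10.1 against 3.61 and 3.42 (1.51, limma adjusted p = 0.00012). Synaptic vesicle genes were higher for 17 of 28 and lower for 2 (median 0.36), and for 11 without the table's hetero-KO column. The fusion protein gene Stx1a read 5.19 and 5.32 in the table against 1.29 and 1.48 (1.93, limma adjusted p = 0.00015). Interneuron markers were higher for 9 of 24 and lower for 9 (median 0.13): the peptide gene Vip read 2.11 and 2.39 against 0.440 and 0.545 (2.20, limma adjusted p = 0.00029), and Sncg, a synuclein gene of some interneurons, 0.233 and 0.228 against 0.891 and 0.726 (-1.80, limma adjusted p = 0.00040). Immature neuron genes were higher for 6 of 18 and lower for 3 (median 0.22), with 5 of each without the hetero-KO scanner array. Dcx, a microtubule protein gene of immature neurons, read 0.658 and 0.609 against 0.202 and 0.185 (1.71, limma adjusted p = 0.00026).

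Genes of cytosolic ribosomal proteins were lower in the table for 55 of 61, by small amounts (median -0.29, range from -0.48 to -0.09). Rplp0 read 17.1 and 17.2 in the table, 24 and 23.9 on the 18-month scanner arrays and 20.5 and 20.4 on the 4-month arrays (-0.48, limma adjusted p = 0.00081). With quantile normalization 20 of the 61 passed, and without the table's hetero-KO column 35. Of the 61, 8 were lower than on the 4-month arrays (median -0.06), beside 14.3% of all genes lower in that comparison. Lysosome genes were lower for 21 of 32 and higher for 1 (median -0.33). The progranulin gene Grn read 24.9 and 10.9, then 64.9 and 73.9, then 25.2 and 19.9 (-2.07, limma adjusted p = 0.0086). It differed by -1.48 without the table's hetero-KO column and by -2.66 without its WT column. The 3 probes of Grn ran from -2.07 to -0.29, so the size of its difference is uncertain.

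Ranked by size of difference, the genes with official symbols that led the higher side included several that the scanner arrays hardly detected. Col24a1, a fibrillar collagen gene, read 0.285 and 0.258 in the table. It was not well above background on the 18-month scanner arrays (0.00508 and 0.00201), so it was at least 34.4-fold higher at this probe. The other probe of Col24a1 differed by 0.19, so the size of the gene's difference is uncertain. Helt, a bHLH transcription factor gene, read 0.153 and 0.207 and was at least 22.5-fold higher. Well measured on both sides were Dkkl1, a dickkopf-like gene, at 4.06 and 4.16 against 0.184 and 0.186 (4.47, SE 0.06, limma adjusted p = 3.0e-05), and Slc23a3, a transporter gene, at 0.893 and 1.31 against 0.0699 and 0.050 (4.2, limma adjusted p = 0.00030). The major urinary protein genes Mup1, Mup17 and Mup18 were among these leaders as well. They are near-identical copies whose probes may share signal, and none was well above background on the scanner arrays, so their bounds of at least 5.52-fold, 4.08-fold and 4.49-fold cannot be told apart by gene.

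On the lower side, Ceacam16, a secreted adhesion family gene, was below the detection level in both table columns. It read 0.360 and 0.526 on the 18-month scanner arrays, at least 53.3-fold higher there at this probe. It read 0.119 and 0.0328 on the 4-month arrays. The other probe of Ceacam16 differed by -1.55 from the 18-month arrays, so the size of its difference is uncertain. Avpr1b, a vasopressin receptor gene of CA2 neurons, was below the detection level in the table too and at least 18.5-fold higher on the scanner arrays, where it read 0.101 and 0.225. The paraoxonase gene Pon1 was at least 8.39-fold higher there. The choroid plexus genes Slc4a5, Kcne2, Cldn2, F5 and Sostdc1 filled 5 of the 15 leading places on this side, and Dsp, Lct and Spink8 another 3.

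Muscle contractile genes had 6 of 11 members higher in the table and 1 lower (median 1.07). Where all probes of a gene were averaged, 4 were higher and 2 lower (median 0.34). Myl1, a myosin light chain gene, read 1.1 and 1.21 against 0.151 and 0.164 (2.88, limma adjusted p = 9.1e-05). The probes of Myl1, Myh2 and Myh4 disagree in sign within each gene, so the direction of these genes is uncertain, and with probes averaged Myl1 (limma adjusted p = 0.15) and Myh4 (limma adjusted p = 0.26) did not pass. Mb, the myoglobin gene, was lower by 1.96.

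Sex-linked genes also separated the columns. Xist read 0.153 and 0.233 in the table and was not well above background on the 18-month scanner arrays (0.00571 and 0.00368), at least 23.9-fold lower there. On the 4-month arrays it read 0.163 and 0.229, and the table differed from these by -0.03. A brighter probe that the files name XIST read 5.47 and 7.75 in the table, 0.0255 and 0.0198 on the 18-month arrays, and 5.59 and 8.18 on the 4-month arrays. The Y-linked translation factor gene Eif2s3y read 0.605 in the table's WT column and 0.00256 in its hetero-KO column, 1.29 and 1.32 on the 18-month arrays, and 0.669 and 0.00167 on the 4-month arrays. Uty, a Y-linked demethylase-family gene, read 0.129 and 0.00162, then 0.395 and 0.382, then 0.132 and 0.00153, and the Y-linked helicase gene Ddx3y 0.0975 and 0.00156, then 0.240 and 0.225, then 0.106 and 0.00149. In these genes the table's WT value lay between the hetero-KO value and both 18-month arrays, and near the 4-month WT value, while the table's hetero-KO value was below the detection level like that of the 4-month hetero-KO array. None of the 4 Y-linked genes passed (limma adjusted p from 0.10 to 0.17). With genotype as a block Ddx3y (-4.23, limma adjusted p = 0.042) and Uty (-4.75, limma adjusted p = 0.036) passed. Kdm5d, a Y-linked demethylase gene, read 0.102 and 0.104 in the table at the probe used, then 0.117 and 0.120, then 0.0875 and 0.0840. At that probe its hetero-KO values in the table and at 4 months were not lowered as those of Eif2s3y, Uty and Ddx3y were. The probes of Kdm5d ran from -4.69 to -0.20, and with probes averaged it passed at -2.79 (limma adjusted p = 0.045). Each array is a pool of 3 RNA samples, and the sex of the mice is not in the labels. Xist and Y-linked levels differed between the sides, so sex cannot be told apart from side for any gene reported here. Eif2s3y, Uty and Ddx3y also differed between the table's genotypes, so within the table sex cannot be told apart from genotype.

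A pair of transcripts differed between the genotypes on both sides. Gm29856 read 0.0523 in WT and 0.825 in hetero-KO in the table, 0.0782 and 2.09 on the 18-month scanner arrays, and 0.0739 and 1.58 on the 4-month arrays. The hetero-KO value was above the WT value by 3.98 in the table and by 4.74 on the 18-month arrays. AK156859 read 0.139 and 0.605, then 0.0864 and 1.65, then 0.0705 and 0.966, with genotype differences of 2.12 and 4.26. Both had been set apart by genotype in an earlier analysis of the scanner files, and with 1 column a genotype on each side these differences have no test. Hrh3, the histamine H3 autoreceptor gene, read 10.1 and 11.2 in the table, 2.94 and 6.05 on the 18-month arrays and 3.86 and 7.85 on the 4-month arrays. It was higher in the table than on the 18-month arrays by 1.34 (limma adjusted p = 0.024), a call lost on leaving out either table column, and its genotype difference was 0.16 in the table and 1.04 on the arrays. Zbtb18 was lower in the table by 0.78 (limma adjusted p = 0.0011).

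**Figure D4:**
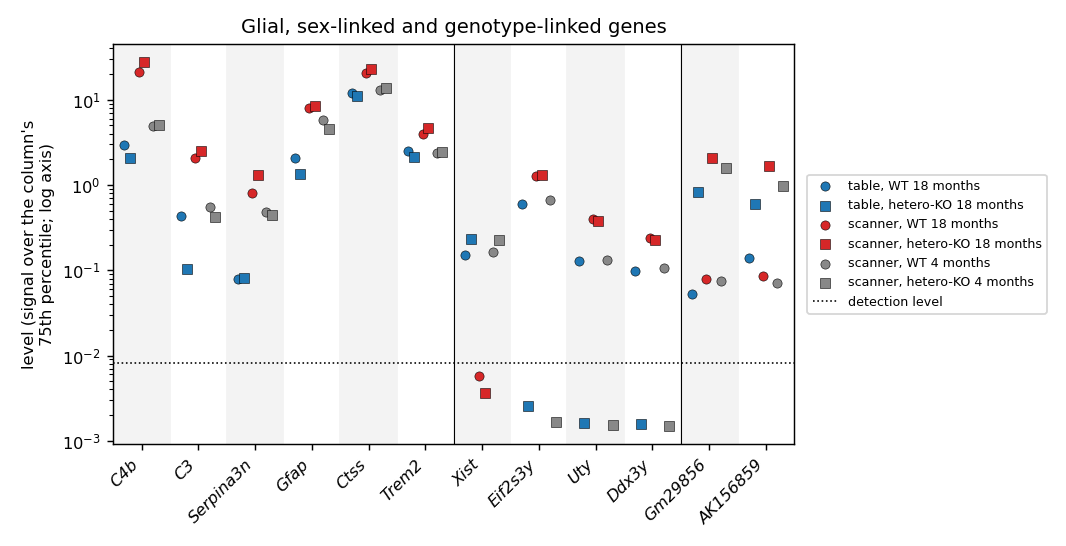
Level of each gene (y axis, log scale, signal over the column's 75th percentile) in the 2 table columns (blue), the 2 18-month scanner arrays (red) and the 2 4-month scanner arrays (grey), with circles for WT, squares for hetero-KO and a dotted line at the detection level of 0.00816. C4b is 21.2 and 27.6 on the 18-month arrays and below 3 in both table columns, Xist is below the dotted line on the 18-month arrays alone, and Eif2s3y, Uty and Ddx3y are below it in the hetero-KO table column and on the 4-month hetero-KO array.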

How the data were processed

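Total RNA of 4 pools was measured on 1-colour arrays, 1 array a group. The scanner files give linear intensity values per spot, made per the file headers with Agilent Feature Extraction 11.5.1.1, also named in the submitters' processing notes. The deposited table gives a linear ratio of signal to its column's 75th percentile, with no log. Its rows were joined to the spots by feature number.

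From these, log2 levels were formed (intensity over the array's 75th percentile of non-control spots), spots of a probe averaged and each gene given its probe with the highest mean. Other probes of a gene can differ less. For example, the smallest difference of any probe was -0.66 for Clec7a, -1.47 for C3, -0.88 for Hdc, -0.90 for St18 and 0.60 for Rgs9. It was -0.45 for Cldn2, -1.69 for Il16 and 2.10 for Slc23a3, so the sizes given for these genes are those of 1 probe. Genes at or above the detection level in both columns of at least 1 side were kept. Sides were compared with limma 3.58.1 in R 4.3.3 (lmFit, eBayes, variance trended on the mean), with p-values adjusted by Benjamini-Hochberg over all genes and a threshold of 0.05. On simulated data with 200 changed genes among 28480, 43.0% of 1.5-fold, 70.5% of 2-fold and 97.5% of 4-fold changes were recovered. False calls in these runs numbered 10, 2 and 15. In the data 10694 genes passed, far more than the 200 changed in a simulation, so these shares do not give the recovery in the data. The number of arrays limits the precision.

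An "at least" fold sets the bright side against the lowest level well above background on each scanner array, or against the detection level in the table, or the dim probe's own level where that is higher. Symbols were updated for 1698 probes through RefSeq names (GRCm38.p6). The comparison, its gene lists and the named genes were chosen with earlier results of these data known. Named genes are the 15 official symbols with the largest passing difference in each direction whose columns do not overlap, up to 5 passing members of each list with the largest difference and up to 3 others that define it, Zbtb18, the 5 sex-linked genes, 3 genes set apart by genotype and the 5 with the largest change of the genotype difference. Single members outside this rule (Mdga1, Tbr1, Crym, Jun) were chosen after their values were seen. The choice of leaders required columns that do not overlap, and list members were chosen by passing and by size. A statement of no overlap therefore describes the values and is no added support. The labels do not tell whether the table columns are separate arrays of these pools, so p-values measure only the spread between these columns. Xist and Eif2s3y levels differed between columns of the same title, and whether the pools differ was not tested. Some members of the lists are counted but not reported by name here.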

Additional observations from a re-analysis of the deposited data

Results flagged for a closer look

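In 4 genes the genotype difference (hetero-KO minus WT, log2) had opposite signs in the table and on the 18-month scanner arrays, among the 5 genes with the largest change of that difference. With 1 column a genotype on each side, the difference between the sides was not tested. Ctxn3, a cortexin gene, read 0.129 and 0.244 in the table against 0.303 and 0.0278 on the arrays, so that its genotype difference was 0.91 and -3.44, a change of 4.36. Lbhd2 read 0.144 and 0.161 against 2.83 and 0.165, a change of 4.26, and the WT scanner array was the column apart from the others. The prolactin gene Prl read 0.00987 and 0.0513 against 0.226 and 0.0709, a change of 4.05. Its WT value in the table lies near the detection level of 0.00816, so the size of that change is uncertain. On the 4-month arrays Prl read 0.0200 and 0.398, a genotype difference of 4.31. Shox2, a homeodomain gene of the thalamus, read 0.120 and 0.0203 against 0.0345 and 0.0846, a change of -3.86. On the 4-month arrays Shox2 read 1.34 and 1.18.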

How the results depend on the processing

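Counts of calls over all genes stayed within 1.5 times of the reported ones under every alternative run other than leaving out a column: genotype as a block, the 4-month arrays as a further group, no variance trend, quantile normalization, median centring, the scanner software's percentile, 3 other filters and the mean of probes. On leaving out 1 column at a time, higher genes numbered 2715 to 3524 and lower genes 3796 to 5067, and against the 4-month arrays 2382 to 3182 and 2328 to 3277. Of 190 named genes that passed, 166 also passed in each of these 4 fits. Signs turned in genes that did not pass: Gm29856 from -3.33 to 1.41, AK156859 from -2.51 to 1.75, Shox2 from -1.41 to 1.15, Prdm12 from -3.98 to 0.47 and Ctxn3 from -0.77 to 2.67, each as 1 column was left out. The cause was not tested. Without the variance trend fewer list members passed, with 29 of 61 ribosomal, 6 of 24 homeostatic astrocyte and 5 of 20 glucocorticoid-induced genes lower. With the columns paired by title (genotype as a block) 4270 genes were higher and 6746 lower. Dim genes are limited by background: below a level of 0.00816 values have no order. Genes dim in both columns of a side are therefore given an "at least" fold and no p-value. The p-values of the Y-linked Eif2s3y, Uty and Ddx3y draw on such values in the table's hetero-KO column.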
